A study of Homo sapiens with 12 samples.

Results

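The mRNA of β-catenin (CTNNB1), of the destruction complex scaffolds APC and AXIN1, of the F-box protein FBXW2 and of the transcription factor TCF7 was followed in LX-2 cells, an immortalised human hepatic stellate cell line, after transfection of a miR-25 mimic. These 5 genes were chosen by symbol from the 199 genes of the nCounter Stem Cell Panel, and all 5 were read in all 12 samples. None of them passed the test for a difference between miR-25 and control cells. CTNNB1 stayed within a narrow range in all samples. FBXW2 and TCF7 had lower values with miR-25 in each of the 3 transfections at 48 h without passing the test. Such a common direction was seen in 25 of 136 genes (18.4%). The 48 h level of APC was 0.672 times the 24 h level with the control mimic and 0.667 times with miR-25. That difference passed in the miR-25 samples, where the call was lost when any of 5 of the 6 replicates was left out, and the difference between the arms did not pass (edgeR adjusted p = 0.974). TCF7 was read close to the background of the assay.

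LX-2 cells were transfected with 10 pmol/ml of the miR-25 mimic or with a control mimic whose sequence derives from Caenorhabditis elegans, and RNA was taken after 24 h or 48 h. The 4 groups were control at 24 h, miR-25 at 24 h, control at 48 h and miR-25 at 48 h, each with 3 samples, and the samples of a transfection were treated as pairs. Transfection efficiency was read in a parallel well of each plate that received a fluorescein-labelled control RNA. The labelled fraction of cells was 0.59 to 0.81 for the 24 h samples and 0.42 to 0.65 for the 48 h samples. Untransfected cells were therefore probably part of every sample, and a change in a few cells cannot be told apart from a smaller change in all. Relative to the paired control, the labels give miR-25 levels between 62.34 and 350.13 (24 h) and between 347.45 and 681.22 (48 h). The question of this experiment was which Notch and Wnt pathway mRNAs differ when miR-25 is raised in stellate cells.

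β-catenin acts both as a link between cadherins and the cytoskeleton at cell junctions and as the effector of canonical Wnt signaling. Without a Wnt signal, APC and AXIN1 hold cytosolic β-catenin in a complex where it is phosphorylated, and an SCF ubiquitin ligase then marks it for degradation. When Wnt receptors are engaged the complex is disabled, β-catenin enters the nucleus and binds TCF/LEF factors, of which TCF7 (TCF-1) is one, at Wnt target genes. Much of this control acts on the β-catenin protein, which the panel does not measure. FBXW2 is the substrate-recognising subunit of an SCF ubiquitin ligase and is not a core part of the destruction complex. Whether its ligase acts on β-catenin was not tested here.

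The sequence of the transfected miRNA and the stretches read by the probes are shown because a miRNA pairs with its targets mainly through its seed (bases 2 to 8, in capitals). The mature form below is that of RefSeq, at chr7:100093571-100093592 on the minus strand of GRCh38.p14. For APC the whole probe target is given, for AXIN1 the part from its first ATG with an open frame (in capitals), and for FBXW2 and TCF7 the first 30 bases of the target, each as DNA from 5′ to 3′ as in the panel's probe list.
hsa-miR-25-3p: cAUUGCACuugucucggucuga
APC: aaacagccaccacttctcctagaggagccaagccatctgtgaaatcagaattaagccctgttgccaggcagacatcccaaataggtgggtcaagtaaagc
AXIN1: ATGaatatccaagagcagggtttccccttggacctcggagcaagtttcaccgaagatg
FBXW2: tcctttcttacaaggattggatttcttggg
TCF7: attccatttccagttcatctatggcagtcc
The complement of the seed, GTGCAAT on the strand of the mRNA, occurred 0 times in the full 100-base targets of these 4 genes. Each target is a short window of its mRNA, so this says only that these letters are not in the window read.

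The samples differed in depth by time. The summed count over the 199 genes was 321243 to 409581 at 24 h and 107377 to 200821 at 48 h, so time and depth cannot be told apart, and levels are therefore given as counts per 100000 panel gene counts of the sample. GAPDH alone took 26.9% to 33.4% of the counts. Replicate 1 at 48 h stood apart in both arms, since its counts differed from those of the other 48 h replicates by a chi-square per degree of freedom of 51.4 to 73.1, against 3.996 between replicates 2 and 3 of the control arm and 2.52 in the miR-25 arm. At 24 h replicate 1 differed from the others by 13.2 to 16.8. Results that involve 48 h are given with and without it where it matters. All 5 stellate or fibroblast-like markers (COL1A1, CDH2, PLAU, CD44 and CXCL12) were above background in all 12 samples. Their summed level was 8067 to 8688 at 24 h and 4209 to 7895 at 48 h, with the 2 lowest sums in replicate 1. The sum does not stand for each marker, as PLAU had its lowest level (329) in a 24 h sample and its highest (779) in a 48 h sample. Of the epithelial markers, CDH1 was above background in 1 sample and KRT15 in 5. Of the pluripotency markers, SOX2 was above it in 0 samples, NANOG in 8 and POU5F1 in all 12. Of the neural markers, S100B was above it in 0, NCAM1 in 5 and SOX1 in 8.

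The 5 genes spanned a wide range of levels. CTNNB1 (NM_001904.3) had a mean of 2785 counts per 100000 and ranked 4th of the 199 genes. FBXW2 (NM_012164.3) followed at a mean of 252, AXIN1 (NM_181050.1) at 154, APC (NM_000038.3) at 123.1 and TCF7 (NM_003202.2) at 11.02. Each transcript is counted once whatever its length, but probes differ in efficiency, so the order is a description of the counts. CTNNB1 lay above FBXW2 and TCF7 lay below the other members in every sample, whereas AXIN1 and APC were nearly equal at 24 h, and FBXW2 lay above AXIN1 in 11 of the 12 samples.

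**Figure D1:**
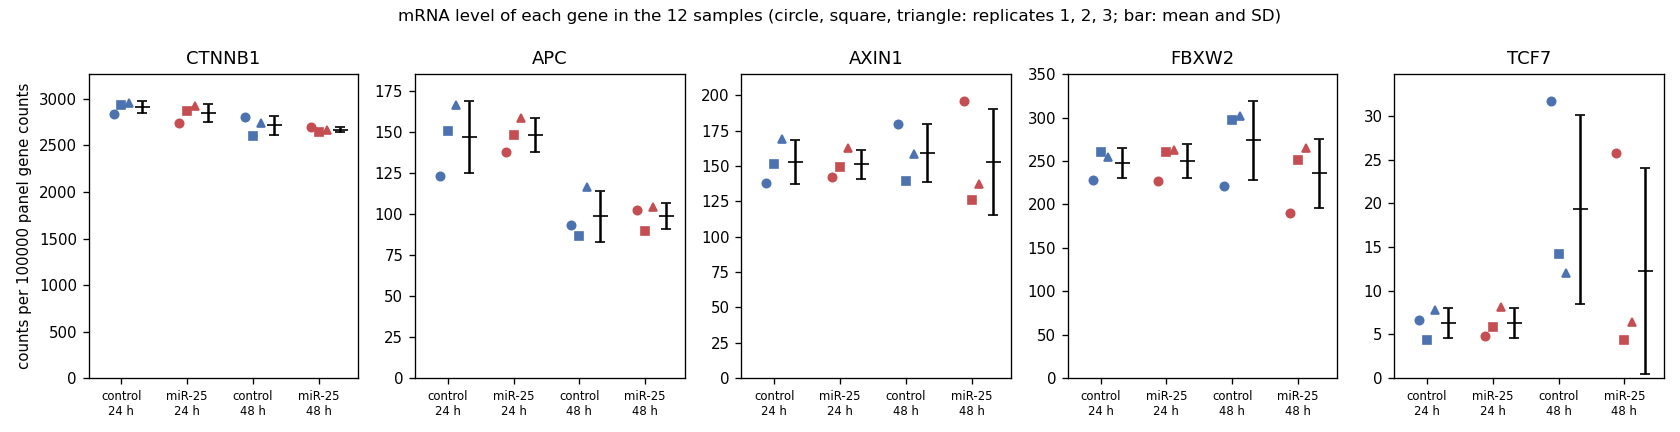
Level of each gene in counts per 100000 panel gene counts (y axis, from 0, with its own range in each panel) in the 4 groups; circles, squares and triangles are replicates 1, 2 and 3, and the bar gives the mean and SD (n = 3). CTNNB1 stays between 2599 and 2955, the 48 h samples of APC all lie below its 24 h samples, and TCF7 is highest in replicate 1 at 48 h in both arms.

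β-catenin mRNA was among the most even of the panel. In control samples at 24 h CTNNB1 was at 2838, 2938 and 2955 counts per 100000 in replicates 1, 2 and 3, and in miR-25 samples at 2742, 2873 and 2928. At 48 h it was at 2802, 2599 and 2742 in control samples and at 2699, 2644 and 2665 in miR-25 samples. The 12 values differed by at most 1.14-fold, and their coefficient of variation of 4.38% was the 4th smallest of the 136 genes averaging 20 counts or more, whose median was 17.5%. Counting noise adds more to this coefficient at low counts. The ranking was not corrected for level, in which CTNNB1 was 4th of the 199 genes. Within pairs, miR-25 samples had 0.978 ± 0.012 times the control level after 24 h (SD, n = 3 pairs) and 0.984 ± 0.029 times after 48 h. At 24 h the ratio was below 1 in all 3 pairs, as it was for 5.88% of the 136 genes. At 48 h the pairs lay on both sides of 1, with 1.017 in pair 2.

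Each of these ratios was within a few percent of 1, and none passed the test. In the edgeR quasi-likelihood fit over all genes, blocked by transfection, the log2 fold change of CTNNB1 at 24 h was -0.03 ± 0.03 (SE; adjusted p = 0.858). The 48 h value was -0.02 ± 0.03 (adjusted p = 0.734). At 24 h the fit called 0 of 136 genes (0%), with 9 at an unadjusted p under 0.05, and DESeq2 also called 0. At 48 h it called 1 of 136 (0.735%), which was none of the 5 genes described here.

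APC, the large scaffold whose loss frees β-catenin, showed no common direction with miR-25. Its 24 h level in control replicates 1, 2 and 3 was 123.1, 151 and 167 counts per 100000, and 138, 148 and 158 with miR-25. Its 48 h level was 93.1, 86.7 and 116 in control samples and 102, 89.9 and 104 in miR-25 samples. The ratio within pairs was 1.120, 0.984 and 0.951 after 24 h and 1.099, 1.04 and 0.895 after 48 h. Pairs lay on both sides of 1 at both times. The log2 fold change was 0.02 ± 0.06 (SE) at 24 h (edgeR adjusted p = 0.957) and -0.02 ± 0.10 at 48 h (edgeR adjusted p = 0.944).

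AXIN1, the scaffold that binds both APC and β-catenin, was likewise not separated between arms. Its level was 138, 151 and 169 counts per 100000 in 24 h control samples and 142, 149 and 162 with miR-25. The 48 h values were 180, 139 and 159 in control samples and 196, 126 and 137 in miR-25 samples. The ratio within pairs was 1.03, 0.984 and 0.961 at 24 h and 1.09, 0.903 and 0.862 at 48 h, on both sides of 1 at each time. The log2 fold change at 48 h was -0.08 ± 0.08 (SE), with an edgeR adjusted p of 0.705. Without replicate 1 at 48 h it was -0.19 (edgeR adjusted p = 0.786), and without replicate 3 at 48 h it was -0.0019 (edgeR adjusted p = 0.999).

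FBXW2 was lower with miR-25 in every pair at 48 h, by a like amount. Its level at 24 h was 228, 260 and 255 counts per 100000 in control samples and 227, 260 and 263 with miR-25. The 48 h values were 222, 298 and 302 in control samples against 191, 252 and 265 in miR-25 samples. The ratio within pairs was 0.997, 0.999 and 1.03 at 24 h, and 0.860, 0.845 and 0.880 at 48 h. The groups overlapped at 48 h, where replicate 1 was low in both arms, but within each pair the miR-25 sample was lower, and the mean ratio of 0.861 had an SD of 0.017 (n = 3 pairs).

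This difference did not pass the correction over all genes. The log2 fold change of FBXW2 at 48 h was -0.21 ± 0.06 (SE), with an unadjusted p of 0.00291 and an edgeR adjusted p of 0.120, and its p was the third smallest of the 136 genes. Without replicate 1 it was -0.21 with an adjusted p of 0.227. An exact sign-flip test of the 3 pairs gave a 2-sided p of 0.25, the smallest that 3 pairs allow. Of the 136 genes, 25 (18.4%) were lower in all 3 pairs at 48 h, so a common direction alone was frequent on this panel.

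The difference between the effects at 48 h and at 24 h was -0.23 ± 0.08 (SE) on the log2 scale for FBXW2, with an unadjusted p of 0.00984 and an adjusted p of 0.446 in the edgeR fit. That comparison called 0 of 136 genes (0%), with 8 (5.88%) at an unadjusted p under 0.05, and 1 in DESeq2. Over both times together FBXW2 was at -0.10 ± 0.04 (edgeR adjusted p = 0.214). The fit over both times called 0 of 136 genes (0%), with 26 at an unadjusted p under 0.05, and 0 in DESeq2. Relative to CTNNB1 of the same sample, a ratio that needs no scaling, the same FBXW2 counts were lower with miR-25 in all 3 pairs at 48 h. As CTNNB1 hardly differed between the arms, this is not separate evidence. The CTNNB1 over FBXW2 ratio at 48 h was 1.120, 1.204 and 1.105 times that of the paired control. At 24 h the corresponding values were 0.969, 0.979 and 0.961.

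**Figure D2:**
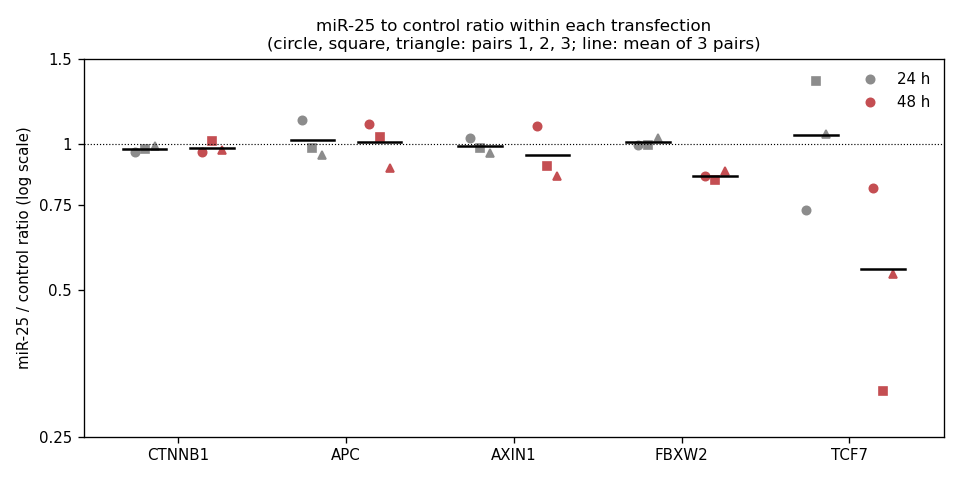
Ratio of the miR-25 to the control sample of the same transfection (y axis, log scale) for the 5 genes at 24 h (grey) and 48 h (red); circles, squares and triangles are pairs 1, 2 and 3, lines are the means of 3 pairs and the dotted line marks 1. CTNNB1 lies close to 1 at both times, the 3 values of FBXW2 at 48 h lie between 0.845 and 0.880, and those of TCF7 are spread between 0.310 and 1.35.

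TCF7, which is best known from T cells, was the only one of the 5 genes near the detection limit. Its raw counts were 27, 15 and 25 in control and 20, 23 and 30 in miR-25 cells at 24 h, and 34, 20 and 22 in control and 40, 7 and 13 in miR-25 samples at 48 h. All 12 exceeded the background limit of their sample (2 SD above the mean of its 8 negative control probes), by 1.27-fold to 5.09-fold. The count of 7 has an exact 95% Poisson interval of 2.81 to 14.4, which covers counting error only. Of the T cell markers on the panel, CD3D and CD8B were above background in 0 of 12 samples, CD8A in 1 and CD4 in 11.

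At 48 h TCF7 was lower with miR-25 in all 3 pairs, as were 18.4% of the 136 genes, but unevenly so. Its scaled level was 31.7, 14.2 and 12 counts per 100000 in control samples and 25.8, 4.40 and 6.47 in miR-25 samples, which gives ratios of 0.813, 0.310 and 0.539. The groups overlapped. The log2 fold change was -0.71 ± 0.26 (SE), with an unadjusted p of 0.0166 and an edgeR adjusted p of 0.25, and it was -1.09 in limma after background subtraction. Without replicate 1 it was -1.22 with an adjusted p of 0.0571, and without replicate 2 it was -0.49 with an adjusted p of 0.752, so the size depended on single samples. At 24 h the ratios were 0.731, 1.35 and 1.05, on both sides of 1, and the log2 fold change was -0.01 ± 0.25 (edgeR adjusted p = 0.983). The difference between the effects at both times was -0.70 ± 0.36 (edgeR adjusted p = 0.631).

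Between the times, APC fell in miR-25 samples from a mean of 148 ± 10 (SD, n = 3) counts per 100000 at 24 h to 98.8 ± 7.7 at 48 h. In control samples its means were 147 ± 22 and 98.7 ± 15.5, a difference of like size that did not pass the test. All 48 h samples lay below all 24 h samples in both arms. The log2 difference in miR-25 samples was -0.58 ± 0.11 (SE) with an edgeR adjusted p of 0.0292, one of 7 of 140 genes called (5%) and of 4 called lower (2.86%). In control samples it was -0.56 ± 0.17 with an adjusted p of 0.113, where 7 of 136 genes were called (5.15%). The difference between the arms was -0.04 ± 0.12 (edgeR adjusted p = 0.974), so passing in 1 arm alone does not set them apart. The sum of the 5 stellate markers was also lower at 48 h than at 24 h in every sample, although PLAU had its highest level at 48 h. The part of these markers in the APC result was not tested.

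The call of APC depended on the samples and the scaling. Its log2 difference ranged from -0.71 to -0.47 in control and from -0.63 to -0.52 in miR-25 samples when 1 replicate was left out. Without replicate 1 at 48 h it was -0.52 in control samples (adjusted p = 0.0415, with 42% of 138 genes called) and -0.60 in miR-25 samples (adjusted p = 0.00265, with 44.6% of 139 genes called). Leaving out any of the other 5 replicates brought the adjusted p in miR-25 samples to between 0.0694 and 0.153, and the call was also lost with scaling to reference genes, at 0.0521. An exact permutation test of 3 against 3 samples gave a 2-sided p of 0.1 in each arm, the smallest the design allows. Of the 136 genes, 19 (14%) in control samples and 31 (22.8%) in miR-25 samples were lower at 48 h with no overlap.

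AXIN1 overlapped between the times in both arms. Its means were 153 ± 16 (SD, n = 3) and 159 ± 20 counts per 100000 at 24 h and 48 h in control samples, and 151 ± 10 and 153 ± 38 in miR-25 samples. The log2 difference was 0.06 ± 0.14 (SE) in control samples (edgeR adjusted p = 0.769) and 0.01 ± 0.18 in miR-25 samples (edgeR adjusted p = 0.944). Without replicate 1 at 48 h these were -0.03 and -0.20, and with TMM scaling the control value was -0.01. The ratio of both scaffolds within a sample needs no normalisation. AXIN1 over APC counts gave 1.120, 1.01 and 1.01 in control samples at 24 h and 1.93, 1.61 and 1.37 at 48 h. With miR-25 it was 1.03, 1.01 and 1.03 at 24 h and 1.91, 1.40 and 1.32 at 48 h. The times did not overlap in either arm, with an exact permutation p of 0.1 each, and replicate 1 was the highest at 48 h.

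β-catenin relative to APC was likewise higher in all 48 h samples than in all 24 h samples of its arm. This ratio and AXIN1 over APC use the same APC counts, so they are not separate evidence beside the lower APC level at 48 h. FBXW2 over APC also lay apart between the times in both arms. CTNNB1 over AXIN1, CTNNB1 over FBXW2 and FBXW2 over AXIN1, which leave APC out, overlapped in both arms. The CTNNB1 over APC ratio was 23.0, 19.5 and 17.7 in control samples at 24 h and 30.1, 29.98 and 23.6 at 48 h. With miR-25 it was 19.9, 19.4 and 18.5 at 24 h and 26.4, 29.4 and 25.6 at 48 h. CTNNB1 itself was 0.933 times its 24 h level in control and 0.937 times in miR-25 samples, with all 48 h values below all 24 h values of the same arm. Of the 136 genes, 14% in control and 22.8% in miR-25 samples were likewise lower at 48 h with no overlap. That small difference had log2 values of -0.10 ± 0.08 (SE; edgeR adjusted p = 0.415) and -0.09 ± 0.08 (edgeR adjusted p = 0.442), so neither passed the test.

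**Figure D3:**
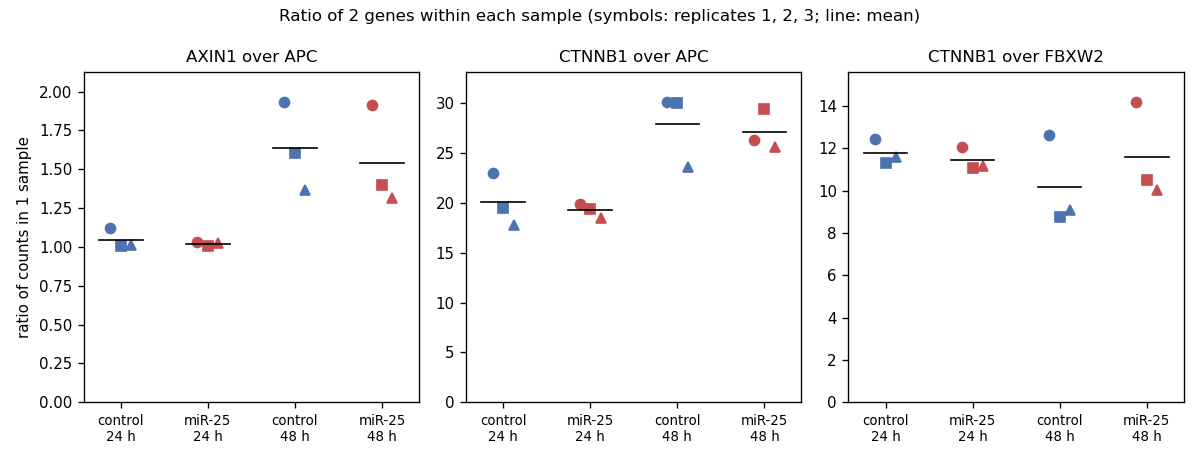
Ratio of the counts of 2 genes within each sample (y axis, from 0) in the 4 groups; circles, squares and triangles are replicates 1, 2 and 3 and lines are means of 3 samples. AXIN1 over APC and CTNNB1 over APC are higher in all 48 h samples than in all 24 h samples, and CTNNB1 over FBXW2 overlaps between the times.

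FBXW2 overlapped between the times as well. Its means were 248 ± 17 (SD, n = 3) and 274 ± 45 counts per 100000 at 24 h and 48 h in control samples, and 250 ± 20 and 236 ± 40 in miR-25 samples. The log2 differences of 0.15 ± 0.14 (SE; edgeR adjusted p = 0.486) and -0.08 ± 0.15 (edgeR adjusted p = 0.703) did not pass. Without replicate 1 at 48 h, in fits that called 42% and 44.6% of the genes, the control arm was at 0.28 with an edgeR adjusted p of 0.0490 and the miR-25 arm at 0.05 with an adjusted p of 0.688.

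TCF7 in control samples had higher scaled values at 48 h, while its raw counts were similar, with a sum of 67 at 24 h and of 76 at 48 h. It was at 6.68, 4.38 and 7.78 counts per 100000 at 24 h and at 31.7, 14.2 and 12 at 48 h, with no overlap, as were 21.3% of the 136 genes in that direction. The raw counts of both times, 15 to 27 and 20 to 34, did overlap, while the summed counts of the samples were lower at 48 h. The log2 difference was 1.55 ± 0.43 (SE) with an edgeR adjusted p of 0.0959. It was 1.54 in DESeq2, where the adjusted p was 0.0131 and 14% of genes were called, and without replicate 1 at 48 h it was 1.04 with an adjusted p of 0.0194, where 42% of genes were called.

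After subtraction of the mean negative control count, TCF7 in control samples was at 5.27, 3.00 and 6.40 per 100000 at 24 h and at 28.8, 12.04 and 10.1 at 48 h, so the groups stayed apart. In miR-25 samples it was at 4.88, 5.91 and 8.16 at 24 h and at 25.8, 4.40 and 6.47 at 48 h before subtraction, and the high value was that of replicate 1 alone. The log2 difference there was 0.92 ± 0.64 (SE; edgeR adjusted p = 0.378), and it was 0.53 with limma and 0.47 after background subtraction. The summed level of the 4 T cell markers was 10.3 to 14.8 per 100000 in control samples at 24 h and 12.1, 29.1 and 20.7 at 48 h. It was lowest at 48 h in replicate 1, where TCF7 was highest. Only CD4 of the 4 was above background in more than 1 sample, and a link between these markers and TCF7 was not tested.

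**Figure D4:**
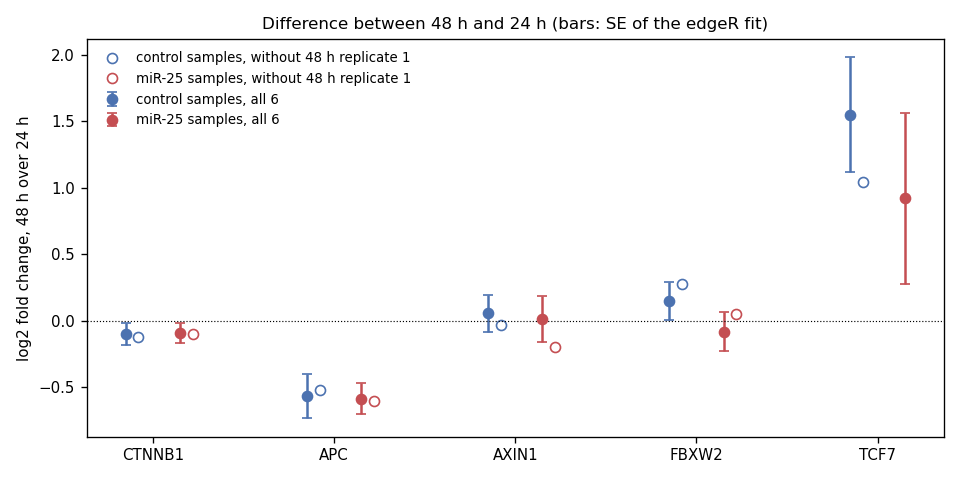
Log2 fold change between 48 h and 24 h (y axis) in control (blue) and miR-25 samples (red), with the SE of the edgeR fit over 6 samples as bars; open circles give the value without replicate 1 at 48 h, which could not be had for TCF7 in miR-25 samples, where its mean count was then too low. APC lies between -0.52 and -0.60 in both arms with and without that replicate, and TCF7 in control samples falls from 1.55 to 1.04 without it.

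The other genes around β-catenin were read from lists of 30 panel genes, of which 27 reached a mean of 20 counts and were tested. None of the 27 was called in the miR-25 comparisons or between the times. The median log2 fold change of the 27 with miR-25 was 0.05 at 24 h and 0.03 at 48 h, beside 0.03 and -0.01 over all genes tested. Between the times it was -0.07 in control and -0.11 in miR-25 samples, beside 0.13 and 0.08 over all genes tested.

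The turnover list held kinases, phosphatase subunits and the F-box proteins BTRC and FBXW11 that recognise phosphorylated β-catenin. Of its 9 genes, 6 had positive and 3 negative log2 fold changes with miR-25 at 48 h, between -0.05 and 0.14, and the most abundant, the phosphatase subunit PPP2CA, was at 0.09 ± 0.05 (SE). The 4 relays upstream of the complex ranged from -0.32 to 0.11, and DVL2, a Dishevelled protein and the most abundant of them, was at 0.03 ± 0.06.

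The 7 nuclear partners ranged from -0.08 to 0.08 at 48 h, with HDAC1, a histone deacetylase, the most abundant, at 0.08 ± 0.04 (SE). All 5 Wnt target genes had positive values with miR-25 at 24 h, from 0.06 to 0.14, but so had all 9 turnover genes and 6 of the 7 nuclear partners. Of the 5, 4 had an unadjusted edgeR p under 0.05, beside 6.62% of all genes tested, but the smallest adjusted p was 0.543. At 48 h 3 of the 5 were positive and 2 negative, and 1 had an unadjusted p under 0.05, beside 12.5% of all genes tested. CCND1, the cyclin D1 gene and the most abundant of the 5, was at 0.12 ± 0.04 at 24 h and 0.03 ± 0.05 at 48 h. Of the adhesion partners, CDH2 (N-cadherin) was at -0.04 ± 0.05 and CTNNA1 (α-catenin) at -0.02 ± 0.04 at 48 h (SE). CDH1 (E-cadherin) was above background in 1 of 12 samples, and of the Wnt antagonists SFRP4 was above it in 0 and WIF1 in 4, so these were not tested.

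**Figure D5:**
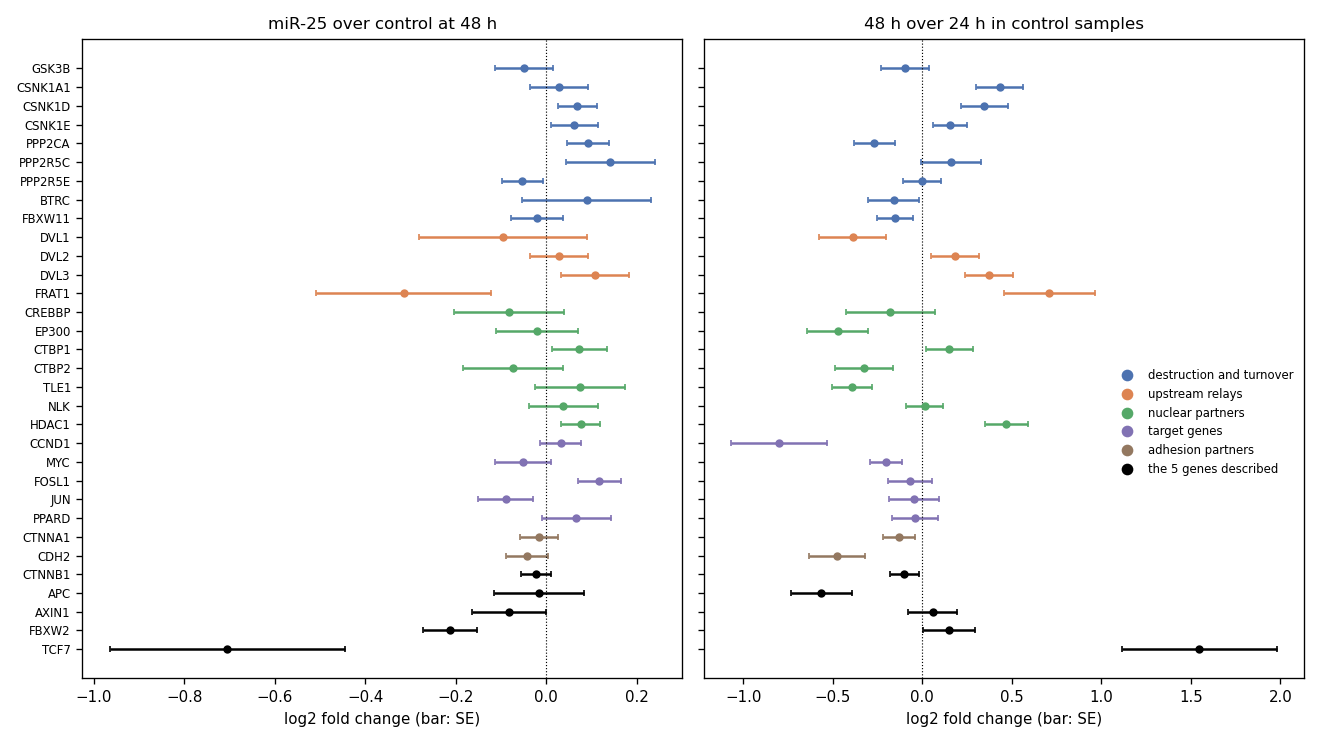
Log2 fold change with its SE (x axis) of 27 genes around β-catenin, coloured by list, and of the 5 genes described (black), with miR-25 over control at 48 h (left) and with 48 h over 24 h in control samples (right). With miR-25 FBXW2 and TCF7 lie at -0.21 and -0.71, and between the times APC lies at -0.56 and TCF7 at 1.55.

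The genes with the most similar profile over the 12 samples were found by the root mean square difference of centred log2 levels, against 135 other genes, as a description. For CTNNB1 they were RAC1 (0.06), its adhesion partner CTNNA1 (0.08) and NLK (0.08), against a median of 0.25. For APC they were EP300 (0.13), FZD7 (0.15) and FGFR1 (0.15), against 0.41. AXIN1 was closest to FZD6 (0.09), PRKCI (0.11) and PSEN2 (0.11), against 0.30, and FBXW2 to PPP2R5E (0.10), TUBB (0.11) and SMAD4 (0.12), against 0.29. The nearest genes to TCF7 were ALDH2 (0.56), FZD3 (0.58) and PRKCH (0.66), against 0.95, so no gene followed it closely. All samples share the scaling by their own total, and low counts add noise to such distances. The distance was not scaled by the spread of a gene, so a gene as even as CTNNB1 lies close to other even genes.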

How the data were processed

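LX-2 mRNA was measured on the nCounter Dx Stem Cell Panel in 12 samples. The authors deposited raw counts per probe, read with the Digital Analyser and nSolver 3.0, with no background correction or scaling (whole numbers, minimum 1), and no alignment is involved. The panel sheet named 193 of 199 genes, and a GRCh38.p14 table named 6, among them CTNNB1. Groups came from the labels. Samples of 1 transfection share its efficiency and formed control and miR-25 pairs (correlation of deviations from group means 0.283 to 0.883), whereas equal numbers at 24 h and 48 h did not pair samples (-0.096 to 0.057). The study's methods describe its replicates as independent experiments, and the labels give each transfection its own efficiency.

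Counts of genes with a mean of at least 20 were fitted by edgeR 4.0.16 (quasi-likelihood, total over the 199 genes as library size, Benjamini-Hochberg at 0.05) in R 4.3.3: all 12 samples with the transfection as block for miR-25, and the 6 samples of an arm for time. The fit was tested on simulated counts. Alternatives used DESeq2 1.42.0 and limma 3.58.1 (pseudocount 1), TMM, 5 reference genes, background subtraction, filters, blocks and left-out replicates. Named genes were the 5 members, for each the 3 genes of nearest profile, the most abundant of each pathway list and the cell type markers. BTRC and FBXW11 were named to describe their list, CDH1, SFRP4 and WIF1 because they were not tested, and GAPDH for its share of the counts. The members and lists were chosen with earlier results of these data known. The 8 negative probes gave the background, and the 6 positive probes were not used.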

Additional observations from a re-analysis of the deposited data

How the results depend on the processing

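No alternative called any of the 5 genes in a miR-25 comparison (0 of 286 fitted values), and FBXW2 at 48 h kept a negative log2 fold change in all 15 of them. The limits of these values are the 3 samples of each group, the lower depth at 48 h, which cannot be told apart from time, and for TCF7 counts near background. Values close to 0 turned sign. With TMM, the 24 h log2 fold changes of APC and FBXW2 were -0.013 and -0.022, the 48 h values of CTNNB1 and APC were 0.011 and 0.022, and AXIN1 over time in control samples was -0.012. With DESeq2, APC and FBXW2 at 24 h were -0.016 and -0.026, and AXIN1 over time in control samples was -0.0036. With limma, TCF7 at 24 h was 0.015, APC at 48 h 0.0099 and AXIN1 over time in miR-25 samples -0.0089, and after background subtraction these were 0.060, 0.017 and -0.013.

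For APC over time, control samples passed with TMM (-0.64), DESeq2 (-0.63) and 1 fit of all 12 samples (-0.56), and miR-25 samples failed with reference genes (-0.60). TCF7 over time in control samples passed with DESeq2 (1.54). The counts of called genes were 3 at 24 h and 3 at 48 h when each time was fitted alone. They were 0 at 48 h after background subtraction, and without a filter 3 at 48 h, 2 over both times and 1 for the difference of effects. That difference gave 1 with TMM and 1 with DESeq2, and limma gave 1 over both times. Over time, TMM called 11 genes in control and 16 in miR-25 samples, DESeq2 19 and 25, reference genes 4 in miR-25 samples and 1 fit of all samples 17 there.

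Correction for transfection efficiency by the study's rule multiplies a ratio by the efficiency where its mean at that time is under 0.98 and divides it where the mean lies above a band just around 1. It took the mean ratio of CTNNB1 at 24 h from 0.978, just under that limit, to 0.702, and that of TCF7 at 24 h from 1.04 to 1.44. At 48 h it took AXIN1 from 0.951 to 0.523, FBXW2 from 0.861 to 0.483 and TCF7 from 0.554 to 0.294. The other 5 mean ratios lay within the band and were left as they were. By its construction the correction moves such ratios away from 1.

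Without the replicate block of the pairs, 0 genes were called at 48 h and TCF7 at 24 h was at 0.0039. With the number as a replicate block over time, where numbers do not pair samples, 0 genes were called in either arm, APC in miR-25 samples was at -0.59 and AXIN1 at -0.0069.

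Leaving out 1 replicate at a time gave 0 to 3 calls at 24 h, 0 to 2 at 48 h, 0 to 2 over both times, 1 to 58 over time in control and 0 to 62 in miR-25 samples, both highest without replicate 1 at 48 h. The log2 fold changes at 24 h ranged from -0.048 to 0.070 for APC, -0.041 to 0.0085 for AXIN1, -0.0031 to 0.021 for FBXW2 and -0.17 to 0.22 for TCF7, and for APC at 48 h from -0.075 to 0.093. Over time in control samples they ranged from -0.71 to -0.47 for APC, -0.030 to 0.14 for AXIN1, 0.072 to 0.28 for FBXW2 and 1.04 to 1.82 for TCF7. In miR-25 samples the ranges were -0.63 to -0.52 for APC, -0.20 to 0.13 for AXIN1 and -0.18 to 0.050 for FBXW2. TCF7 gave no value with a filter of 100 counts, nor over time in miR-25 samples without replicate 1 at 48 h.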
